A study of Equus caballus with 26 samples.

Results

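Whole-blood gene expression was compared between 7 horses sampled before a 160 km endurance competition (T0, baseline) and 13 other horses sampled after it (T1). These 20 arrays are the samples whose labels place them in the validation set, out of 26 arrays in the series. The other 6 arrays came from 3 training-set horses, each sampled at both times. Each validation horse gave a single array, so that the comparison is between different animals. At T0 there were 3 females and 4 geldings, and at T1 there were 3 females and 10 geldings. All were endurance horses of pure or part Arabian breeding according to the study's methods, with no drug, diet or genetic treatment in the labels. In the study's full cohort the validation horses sampled at T1 had all finished the ride, whereas most of those sampled at T0 were later eliminated at a veterinary check. Time, horse and the outcome of the ride therefore cannot be told apart in this comparison. Blood was drawn into PAXgene tubes, which lyse the cells at once, and the RNA is that of every circulating cell type. In such bulk RNA, fewer cells of a type and less RNA per cell cannot be told apart.

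Long exercise is known to release catecholamines and then cortisol, the horse's main glucocorticoid. Cortisol brings stored and newly made neutrophils into the circulation and draws lymphocytes, eosinophils and basophils out of it. It also acts inside the leukocytes through the glucocorticoid receptor, a transcription factor that switches on genes of its own negative feedback. Neutrophils are the phagocytes that carry antimicrobial granules, and they live mainly on glycolysis and stored glycogen, with few mitochondria and little protein synthesis. Lymphocytes are richer in both.

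Levels are given as the log2 signal of a gene name's probe minus the 75th percentile of the array's probes, so that a level of 0 is a bright probe and a difference of 1 is a doubling of signal. Levels of different genes are not compared, because probes differ in how well they bind. A gene name was tested when its brightest probe was well above background on 7 or more of the 20 arrays, and it was called when its p from limma, adjusted over all gene names by the method of Benjamini and Hochberg, was under 0.05. The share of probes well above background was 66.7% to 71.3% at T0 and 60.4% to 75.4% at T1, and precision is limited by how many arrays there are. The labelled tissue was borne out by markers of its cells: *CD3E* of T cells, *MS4A1* of B cells, *NCR1* of NK cells, *CSF1R* of monocytes, *CSF3R* of neutrophils and *HBB* of red cells were well above background on all 20 arrays. *IL5RA* of eosinophils was so on 5 of 7 T0 arrays and 4 of 13 T1 arrays.

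One array stood apart from its label. The difference between T1 and T0 was computed for each array without that array, and the array was placed along it, with the other T0 horses at 0% and the other T1 horses at 100%. The array of horse 47, labelled T0, lay at 75.4%. The other 6 T0 horses lay between -21.1% and 11.9%, and the T1 horses lay between 65.1% (horse 24) and 123% (horse 4), with a median of 96.4%. Horse 47 therefore lay further along than 1 of the 13 T1 horses. It was kept in the T0 group as labelled, and the results are given with it and without it.

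**Figure D1:**
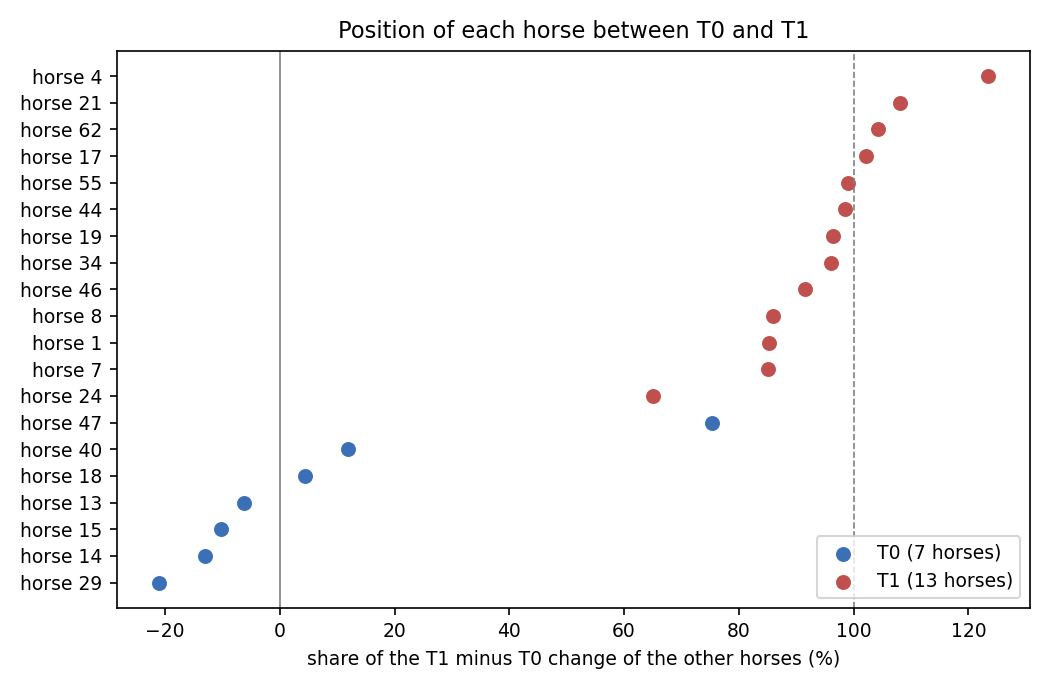
Each point is 1 array of the validation set. The horizontal axis gives how far it lay along the difference between T1 and T0 of the other arrays, in percent, with the T0 arrays in blue and the T1 arrays in red. Horse 47, labelled T0, lay at 75.4%, among the T1 horses, and the other 6 T0 horses lay at 11.9% or below.

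Out of 17404 tested gene names, 7691 were called (44.2%), with 3519 over-expressed at T1 (20.2%) and 4172 under-expressed (24%). The median difference over all gene names was -0.07. Among the calls, 1252 were higher by 1 or more on the log2 scale and 1252 were lower by 1 or more. At a difference of 2 or more the numbers were 253 higher and 82 lower. A symbol was known for 4798 of the called gene names. Without horse 47 there were 8310 calls, 3791 over-expressed (21.8%) and 4519 under-expressed (26%). Of the 7691 calls, 7569 were also made without horse 47 in the same direction, 122 were not and 741 were added. The median size of the difference over the 7691 gene names was 0.81 with horse 47 and 0.90 without it. The 4 geldings at T0 included horse 47. In these and the 10 geldings at T1 alone, 1613 of the 17404 gene names were called higher and 1710 lower. With sex as a term over all 20 horses, 7124 gene names were called. No fit in geldings alone left horse 47 out.

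The ranges of the groups depended far more on this horse than the calls did. The T0 and T1 arrays did not overlap for 385 gene names (2.21%), 252 with every T1 array above every T0 array and 133 with every T1 array below. Without horse 47 the number was 2244 (12.9%), 1143 above and 1101 below. Leaving out any other T0 horse gave between 396 and 509, and leaving out a T1 horse gave between 393 and 758, the highest being without horse 24.

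The arrays were scanned on 7 days, and 5 of these days held both T0 and T1 arrays. With the scan day as a block, 7209 gene names were called, 3367 over-expressed and 3842 under-expressed. Within the single days, between 89.3% and 99.1% of the gene names called higher were also higher, and between 83.1% and 99.2% of those called lower were also lower. The lowest shares were those of the day that held horse 47. These shares are a description, since the days make up the comparison itself.

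The 12 genes with the largest rises included *STBD1*, *IL22RA2*, *IL1R2*, *HP* and *OLFM4*. The probes that read 3 of the largest rises and 3 of the largest falls are shown by the first 30 of their 60 bases, as the scanner files give them, because these letters are what was measured. Their positions are those of the array's annotation. The scanner header names the horse build EquCab1, which was not checked against a genome here.
STBD1: agaatgcagcaataggttcctagagactgg
IL1R2: aaagcgtatggtttgactgcattaaagatt
OLFM4: gacggttaccttctgaattacgatgttatc
MS4A2: caagctctttgtttaaggggctacaggcaa
FCER1A: cacggctttgcagaattgcatcattaaact
ISG15: acctgggggaatacgagcttacagccgggt
The probe of *STBD1* was placed at chr3:39531142-39531201, that of *IL1R2* at chr15:4173797-4173856, that of *OLFM4* at chr17:28312130-28312189 and that of *MS4A2* at chr12:10313878-10313937. Those of *FCER1A* and *ISG15* were placed on sequence not assigned to a chromosome.

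*STBD1*, which tethers glycogen to membranes and so to its breakdown in lysosomes, had levels of -6.44, -5.24 and -1.32 at T0 (lowest, median, highest) and of 1.17, 1.87 and 3.07 at T1. The groups did not overlap, and the highest T0 value was that of horse 47. The difference was 6.83 (SE 0.48, adjusted p = 1.47e-08), the lowest p among the rises, and it was 7.39 without horse 47. *STBD1* was well above background on 5 of the 7 T0 arrays and on all T1 arrays. The size of its difference therefore rests in part on T0 values that were not well above background.

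*IL22RA2*, a secreted decoy receptor that binds IL-22, had a fitted difference of 7.02 (SE 0.83, adjusted p = 4.11e-06). Its levels were -8.33, -7.63 and -2.25 at T0 and -3.15, 0.57 and 3.57 at T1. It was well above background on 2 of 7 T0 arrays, so that its T0 level, the size of its difference and its place among the rises are not settled, and the smallest difference among the alternatives was 3.17. All but 1 of the T1 horses lay above every T0 horse. Without horse 47 the difference was 7.75. *IL1R2*, the decoy receptor that takes up IL-1 without signalling and a known target of glucocorticoids, had levels of -0.59, 1.28 and 5.56 at T0 and of 5.44, 7.40 and 9.10 at T1. Horse 47 was the T0 horse at 5.56, and the other 6 were at 1.38 or below. The difference was 6.06 (SE 0.62, adjusted p = 1.34e-06) with horse 47 and 6.75 without it, and a second gene name of this receptor differed by 6.13. The spots of *IL1R2*, *RETN* and *HBB* were saturated on the T1 array of horse 34.

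Haptoglobin, encoded by *HP*, binds free haemoglobin and is stored in neutrophil granules as well as made by the liver. Its levels were -7.71, -3.55 and -0.94 at T0 and -1.38, 2.76 and 4.76 at T1. All but 1 of the T1 horses lay above every T0 horse, and the difference was 5.95 (SE 0.89, adjusted p = 3.14e-05). *OLFM4*, a protein of the specific granules of a subset of neutrophils, had levels of -6.68, -4.57 and -2.09 at T0 and of -2.01, 0.37 and 4.54 at T1. Its groups did not overlap, and it rose by 5.79 (SE 0.70, adjusted p = 5.06e-06).

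Resistin, encoded by *RETN*, is another neutrophil and monocyte product. It had levels of 0.81, 1.86 and 6.41 at T0 and of 6.10, 7.06 and 7.91 at T1, and rose by 4.40 (SE 0.50, adjusted p = 3.45e-06), or by 5.01 without horse 47. *C1QA*, a chain of complement C1q made by macrophages, rose by 4.36, from between -4.40 and 1.26 at T0 to between 0.43 and 4.11 at T1. The other large rises were those of *ECM2* (5.35), *MMP27* (4.34), *UPP1* (4.30), *TGM3* (4.26) and *CES3* (4.23). *UPP1* encodes the uridine phosphorylase and *TGM3* a transglutaminase. Of the 12 genes with the largest rises, *STBD1* and *OLFM4* had groups that did not overlap. The values of *ECM2* did not overlap either, but it was well above background on 1 T0 array, so that its T0 level and the size of its difference are not settled (1.64 in the smallest of the alternatives). *CES3* was well above background on 4 T0 arrays, *OLFM4* on 5 and *HP* on 6, so that the sizes of these rises rest in part on dimmer T0 values. For 8 of the others the overlap was that of horse 47 alone, and in *HP* another T0 horse also lay within the T1 range.

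The 12 genes with the largest falls included *MS4A2*, *FCER1A*, *CD1B2*, *CD1E* and *ISG15*. *MS4A2*, the beta chain of the high-affinity IgE receptor, had levels of -3.81, -3.17 and -2.31 at T0 and of -8.78, -7.54 and -7.09 at T1. The groups lay far apart, with horse 47 the lowest of the T0 horses. It was well above background on all 7 T0 arrays and on none of the 13 T1 arrays, so that T1 gives a bound, and it was at least 8.84-fold lower at T1. The adjusted p of the fit, 4.49e-11, rests on T1 values that were not well above background. For this bound the T0 mean was divided by a T1 mean in which each array entered with the dimmest signal still well above background, or with its own value where that was brighter. The bound was computed on the scanner's background-subtracted signal alone, and the fitted difference was -0.96 after normexp background correction and -0.95 in the authors' series values. The normexp correction was run with an offset of 50 added to every signal. Such an offset by itself makes the log2 differences of dim probes smaller.

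*FCER1A*, the alpha chain of the same receptor, was bright enough to be read at both times. Its levels were 1.91, 3.13 and 3.71 at T0 and -2.33, -0.68 and 0.31 at T1, with no overlap. It fell by 3.75 (SE 0.34, adjusted p = 3.84e-07), and by 3.92 without horse 47. *HRH4*, the histamine receptor of basophils, eosinophils and mast cells, fell by 2.74, from between -0.99 and 0.47 to between -3.82 and -1.94. *CD1B2* fell by 3.26 and *CD1E* (CD1E2 in the array's annotation) by 3.16, both of the lipid-binding CD1 family. Each was well above background on 6 of 13 T1 arrays, so that the sizes of the falls of *CD1B2* and *CD1E* are not settled.

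*ISG15*, a ubiquitin-like protein that interferon induces, had levels of 2.90, 4.81 and 5.0 at T0 and of 0.19, 1.2 and 2.66 at T1. The groups did not overlap, and the lowest T0 value was that of horse 47. It fell by 3.18 (SE 0.36, adjusted p = 3.36e-06) with horse 47 and by 3.44 without it. *GBP5*, a guanylate-binding protein that the array's annotation names GBP2, fell by 2.47, and a second gene name of *GBP5* fell by 2.46. *HS3ST1*, which sulphates heparan sulphate, fell by 2.40 with no overlap. The other falls among the 12 largest were those of *GCNT2* (2.54), *TLR3* (2.44), *ASGR2* (2.41) and *GPR82* (2.38). All were dim at T1 with between 1 and 8 arrays well above background, so that the sizes and places of these falls are not settled. For *GCNT2*, T1 horse 17 lay at -1.35, above the highest T0 level of -3.48. After normexp background correction with its offset of 50, the differences of genes dim at one time were smaller, and *GCNT2* was not called.

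**Figure D2:**
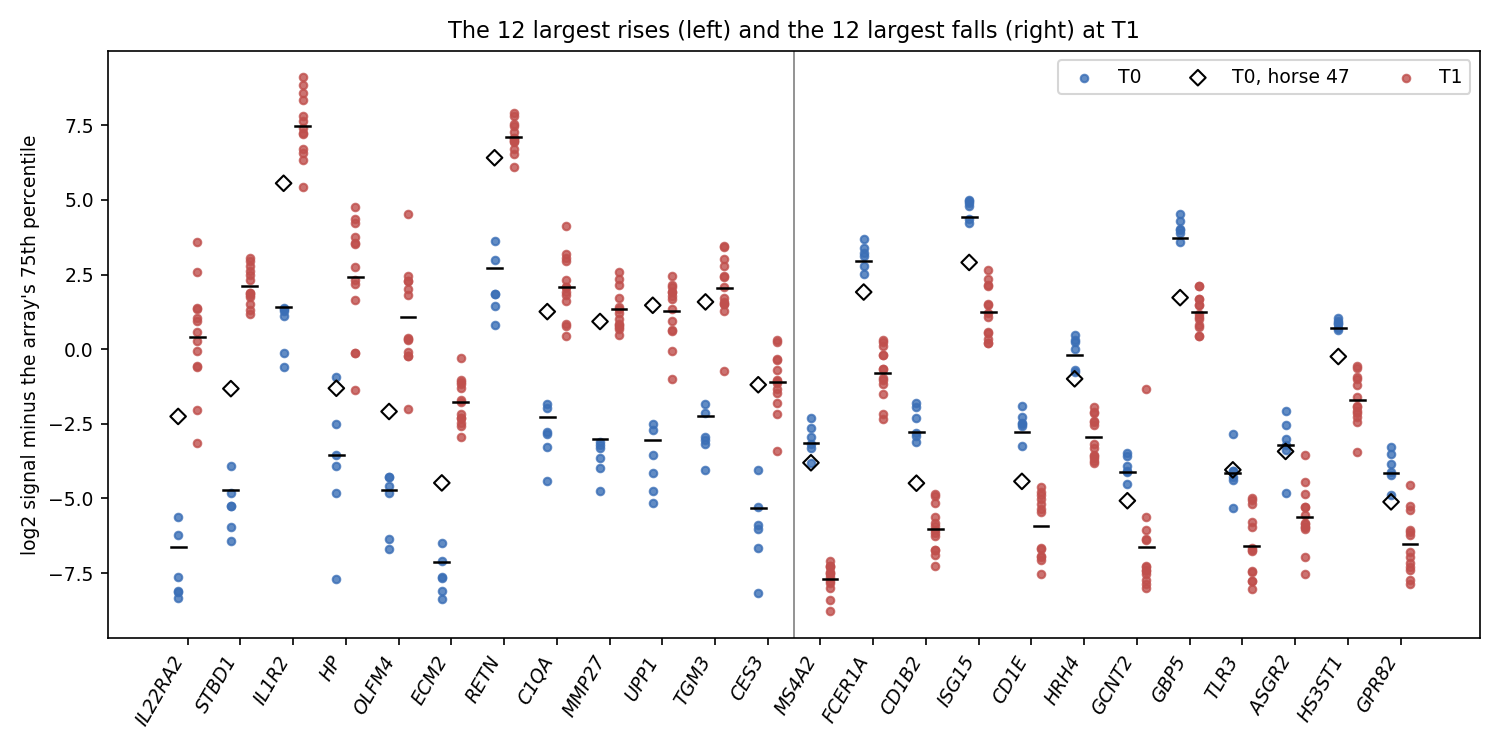
Points are single horses for the 12 genes with the largest rises and the 12 with the largest falls, with T0 in blue, T1 in red, horse 47 as an open diamond and group means as bars. The vertical axis is the level, a log2 signal relative to the array's 75th percentile. In *IL1R2*, horse 47 had 5.56 where the other T0 horses had 1.38 or below.

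Genes of low p were not all of large difference. *SRD5A3*, an enzyme of dolichol synthesis for protein glycosylation, rose by 1.49 (SE 0.11, adjusted p = 5.57e-08). Its levels were -0.75, -0.66 and -0.34 at T0 and 0.52, 0.90 and 1.21 at T1, and here horse 47, at -0.49, lay within the other T0 horses. *GLRX*, the glutaredoxin of the cytosol, rose by 2.22 without overlap. *IL32*, a cytokine of T and NK cells, fell by 1.56, from between 5.66 and 7.22 to between 4.72 and 5.6. *IDUA*, a lysosomal enzyme, fell by 1.25 on its brightest gene name, but another gene name of *IDUA* differed by 0.26 and was not called, and the call was lost with the mean of its probes.

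To describe the change by function, 60 lists of genes, chosen with earlier results of these data known, were set against all gene names tested. Together they held 1459 tested genes, 61 of them in more than 1 list, of which 340 were called higher and 455 lower at T1. Counts of called members are to be read against the 20.2% higher and 24% lower of all gene names. Without horse 47, the median of 59 of the 60 lists kept its sign, and in 52 of the 60 it was larger in size.

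**Figure D3:**
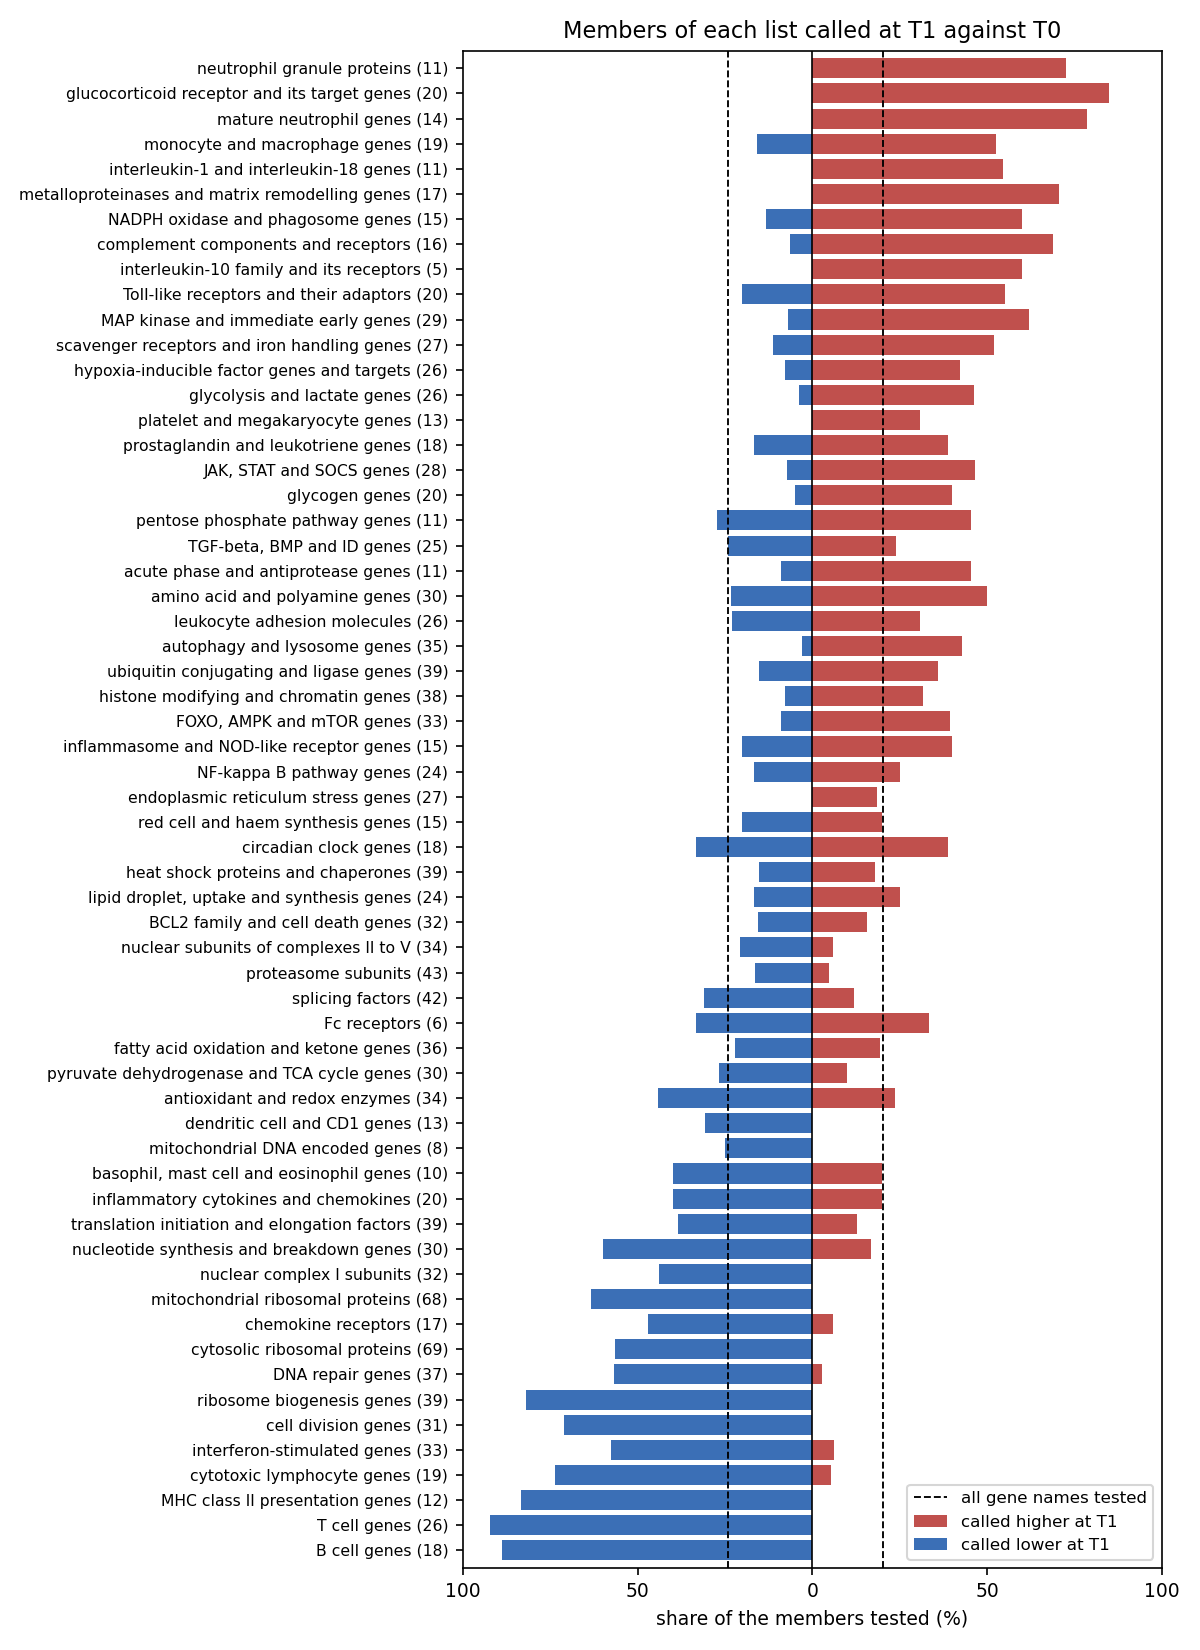
Bars give the share of each list's tested members (number in parentheses) called higher at T1 in red, to the right, and lower in blue, to the left, in percent, ordered by the list's median difference. The dashed lines are the shares over all gene names tested, 20.2% higher and 24% lower. T cell genes and B cell genes had no member called higher, and neutrophil granule proteins and glucocorticoid receptor target genes had none called lower.

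Neutrophil genes were higher after the ride. Of 14 mature neutrophil genes tested, 11 rose and none fell, with a median of 1.5 (11 and none without horse 47, median 1.73). *S100A8*, *S100A9* and *S100A12*, the calcium-binding proteins that make up a large part of the neutrophil's cytosol, rose by 3.09, 2.68 and 2.17, and *FPR2*, a receptor for formylated peptides, rose by 2.86. Levels of *S100A8* were 2.80, 4.36 and 6.91 at T0 and 6.59, 7.17 and 8.47 at T1, and horse 47 was the T0 horse at 6.91. *CSF3R*, the receptor of the neutrophil growth factor G-CSF, was near the threshold, with a difference of 0.76 (adjusted p = 0.0494) that was not called, among other alternatives, without horse 34 or with the scan day as a block. Among the 11 neutrophil granule proteins tested, 8 rose, with a median of 2.33 and of 2.51 without horse 47. Besides *OLFM4* and *RETN*, these included *BPI*, which binds endotoxin (3.74, from between -2.97 and 0.36 to between 0.92 and 3.78), and the collagenase *MMP8* (3.14). The mean level over the 11 granule genes was -1.87, -1.26 and 0.41 at T0 and 0.44, 1.14 and 2.44 at T1. All 13 T1 horses lay above all T0 horses on this mean, and horse 47 was the highest of the T0 horses.

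Lymphocyte genes were lower. Of 26 T cell genes, 24 fell and none rose, with a median of -1.30. Of 18 B cell genes, 16 fell and none rose, with a median of -1.31, and of 19 cytotoxic lymphocyte genes 14 fell and 1 rose, with a median of -1.06. Without horse 47 these counts were the same and the medians were -1.40, -1.40 and -1.26. In geldings alone 13, 6 and 9 fell, with medians of -0.91, -1.10 and -1.06, where 1710 of all 17404 gene names were called lower. *LCK*, the kinase that starts T cell receptor signalling, had levels of 2.69, 3.94 and 4.35 at T0 and of 1.88, 2.41 and 2.85 at T1 and fell by 1.44. *SIT1*, *CD2* and *THEMIS* of T cells fell by 2.03, 1.67 and 1.43. Among B cell genes, *FCRLA* fell by 1.67 (adjusted p = 7.77e-06), *VPREB3* by 1.87, *BLNK* by 1.12 and *POU2AF1* by 0.64.

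Among genes of killer cells, *NCR3*, an activating receptor of NK cells, had levels of 1.75, 3.11 and 3.50 at T0 and of -0.09, 0.99 and 1.65 at T1 and fell by 2.06 without overlap. *NKG7* and *GZMB*, proteins of cytotoxic granules, fell by 1.98 and 2.30. *NCR1*, another activating NK cell receptor, was the one gene of this list that rose. Its levels were -2.66, -2.11 and -1.13 at T0 and -1.61, -0.58 and 0.50 at T1, and 11 of 13 T1 horses lay above every T0 horse (1.34, adjusted p = 0.000244). MHC class II genes, which B cells and monocytes use to present peptides, fell in 10 of 12 with a median of -1.19. They included *DRB* (1.19), *IFI30* (1.18), *RFX5* (1.23) and *CIITA* (1.48), of which *RFX5* and *CIITA* control the transcription of the others. Without horse 47 the count was the same. These markers of neutrophils and lymphocytes moved with the time point, and their part in the differences of the lists described next was not tested.

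**Figure D4:**
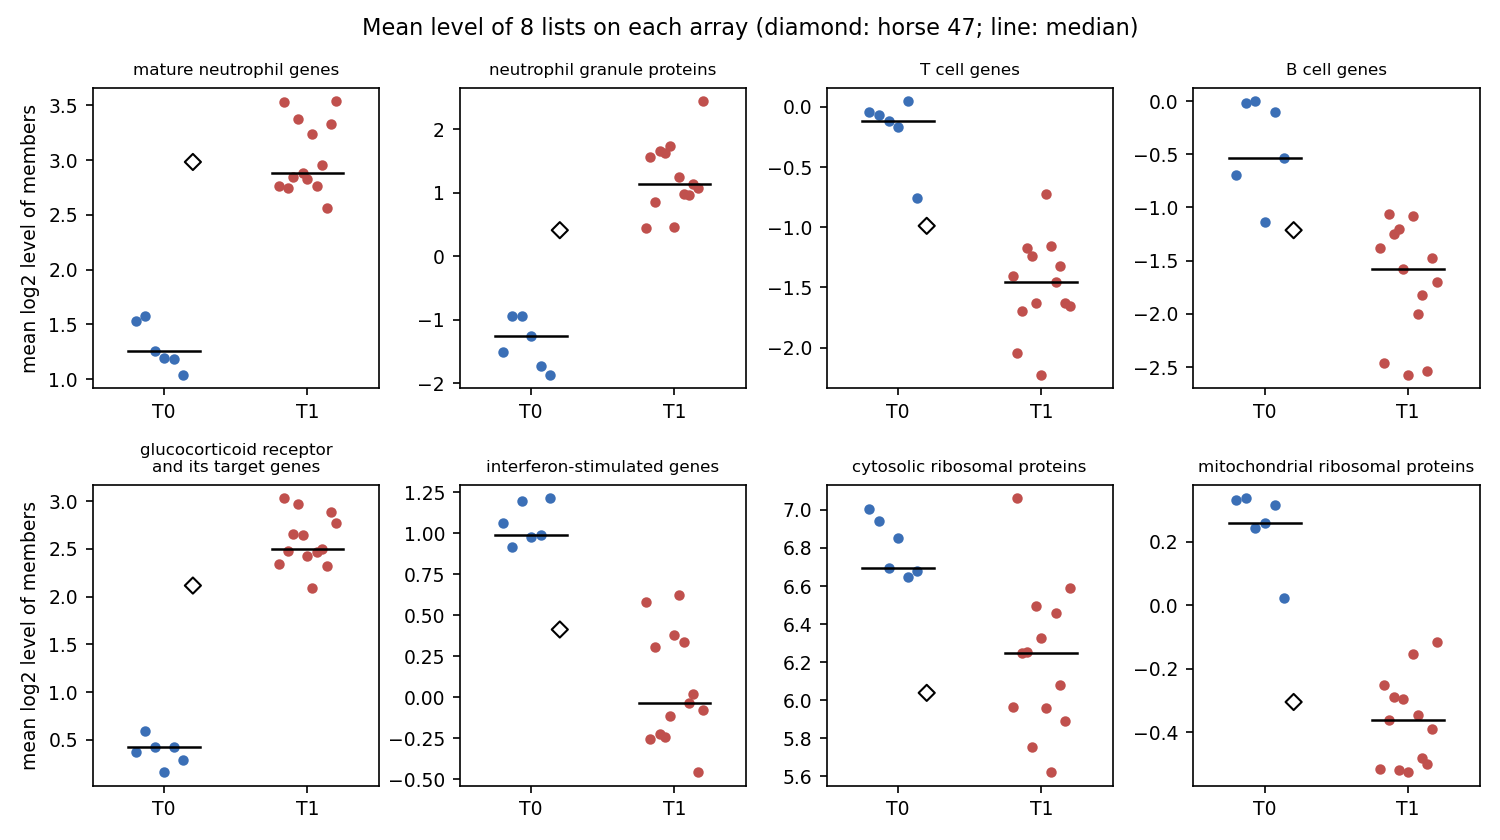
Each point averages the levels (log2) of the tested members on 1 array, with T0 in blue, T1 in red, horse 47 as an open diamond and the group median as a line. In mature neutrophil genes horse 47 lay at 2.98, within the T1 range of 2.56 to 3.54, while the other T0 horses lay at 1.58 or below.

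Monocyte and macrophage genes were more often higher. Of 19 tested, 10 rose (52.6% against 20.2% of all gene names) and 3 fell (15.8% against 24%). The median was 1.18, and without horse 47 it was 1.42, with 11 higher and 3 lower. *CD163*, the scavenger receptor for haemoglobin bound to haptoglobin, had levels of -1.79, -0.96 and 2.62 at T0 and of 2.78, 3.84 and 5.29 at T1. The groups did not overlap, and it rose by 4.19. *C1QB* and *C1QC* rose by 3.64 and 3.44 with *C1QA*, and *VCAN*, a matrix proteoglycan of classical monocytes, by 1.85. *CX3CR1*, the fractalkine receptor of patrolling monocytes, fell by 1.53, and *MS4A7* fell by 0.66. *CSF1R*, the receptor of the monocyte growth factor, had levels of 5.07, 5.32 and 5.63 at T0 and of 4.73, 5.29 and 6.50 at T1, a difference of 0.07 that was not called (adjusted p = 0.784).

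Among genes of basophils, mast cells and eosinophils, 4 of 10 fell (40% against 24% of all gene names). The 2 that rose were 20%, near the 20.2% of all gene names, and the median of the list was -0.35. *MS4A2*, *FCER1A* and *CCR3*, the eotaxin receptor (1.44), fell, whereas *CEBPE* and *MS4A3*, known from immature granulocytes, rose by 0.97 and 1.78. After normexp background correction the median was -0.08. Of 13 platelet genes tested, 4 rose (30.8% against 20.2% of all gene names) and none fell, with 2 higher in geldings alone. Among the 4 were *THBS1* (2.02), the thrombospondin of platelet granules and monocytes, and *SELP* (1.0). Red cell and haem genes had 3 higher and 3 lower of 15, 20% each, near the 20.2% and 24% of all gene names. Their median of 0.07 turned to -0.07 without horse 47 and with quantile normalization. *HBB*, the beta globin, rose by 2.25 (adjusted p = 0.0115), from between 2.98 and 8.28 to between 5.20 and 9.77, and the ranges overlapped widely. No gene of this list, *HBB* included, was called higher in geldings alone, and 1 was lower.

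Genes of inflammatory signalling changed in both directions. Of 11 genes of the IL-1 and IL-18 systems, 6 rose and none fell, with a median of 1.17. Without horse 47 the numbers were 6 and 1, and after normexp background correction 6 and 2. Both IL-1 receptor chains rose, *IL1R1* by 2.34 and *IL1RAP* by 3.63, beside the decoy *IL1R2*, and *IL18* rose by 2.33, from between 1.36 and 3.65 to between 3.59 and 5.44. Toll-like receptors and their adaptors had 11 of 20 higher and 4 lower, with a median of 0.70. *TLR4*, the receptor of endotoxin, had levels of 2.78, 3.01 and 4.59 at T0 and of 4.29, 4.88 and 6.17 at T1 and rose by 1.75. *TLR8*, *TLR2* and *IRAK3*, an inhibitor of this pathway, rose by 1.25, 1.10 and 1.66. *TLR3*, which senses double-stranded RNA, and *CD180* of B cells fell. Complement genes had 11 of 16 higher (10 without horse 47) and 1 lower, *CFB*, with a median of 0.91. None was called lower with normexp background correction, the authors' series values, the scan day as a block or geldings alone.

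Cytokines and chemokines were more often lower. Of 20 tested, 8 fell (40% against 24% of all gene names), with a median of -0.37. The 4 that rose were 20%, near the 20.2% of all gene names. *CXCL1* and *CXCL2*, which draw neutrophils, rose by 3.82 and 2.84 without overlap of the groups. *LTB*, the lymphotoxin of lymphocytes, fell by 1.99, from between 4.95 and 6.56 to between 3.58 and 5.14, and *IL23A* by 1.39. Of 17 chemokine receptors 8 fell and 1 rose, *CXCR2* of neutrophils (1.05), with a median of -0.52. The median was -0.25 after normexp background correction and -0.34 in geldings alone, where 3 fell and none rose. Of the 5 tested genes of the IL-10 family, *IL22RA2*, *IL10* (1.01) and *IL10RB* (0.83) rose, but 1 of the 5 was called higher in geldings alone. Of 15 inflammasome and NOD-like receptor genes, 6 were higher (40% against 20.2% of all gene names) and 3 lower (20% against 24%). With the scan day as a block 3 of them were higher. *NLRC4* and *NAIP*, which form the flagellin sensor, rose by 1.71 and 1.69, and *NLRC3* and *AIM2* fell by 1.52 and 1.43.

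Of 29 MAP kinase and immediate early genes, 18 rose and 2 fell, with a median of 0.69 (19 and 2 without horse 47, median 0.88). *DUSP1*, a phosphatase that switches MAP kinases off, rose by 1.91, from between 2.17 and 4.53 to between 4.47 and 5.79. *KLF4* rose by 2.84 on its brightest gene name and by 1.52 on another. JAK, STAT and SOCS genes had 13 of 28 higher and 2 lower, with a median of 0.42. *SOCS3*, the feedback inhibitor of cytokine receptors, rose by 1.76 and *IL4R* by 1.38, whereas *STAT4* fell by 1.08. Genes of the NF-kappa B pathway had 6 higher and 4 lower of 24, shares near those of all gene names. *NFKBIA* rose by 1.70, *NFKBIZ* by 1.28 and *BCL3* by 1.80, whereas *TRAF3* fell by 0.57 and *NFKBIB* by 0.42. No gene of this list was called lower in geldings alone, and 4 were higher.

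Targets of the glucocorticoid receptor gave the highest share of rises among the 60 lists. The lists were chosen with earlier results of these data known, so that this rank is a description only. Of 20 genes tested, 17 rose and none fell, 85.0% against 20.2% of all gene names, with a median of 1.84. The counts were the same without horse 47, with a median of 2.09. *FKBP5*, a chaperone that lowers the receptor's affinity for its hormone, had levels of 1.56, 2.08 and 5.91 at T0 and of 5.38, 6.19 and 6.79 at T1. Horse 47 was the T0 horse at 5.91, and the other 6 were at 2.47 or below. *FKBP5* rose by 3.60 (SE 0.41, adjusted p = 3.33e-06), or by 4.15 without horse 47, and a second gene name rose by 2.73. Glutamine synthetase, *GLUL*, had levels of -2.17, -1.78 and 1.13 at T0 and of 1.21, 2.06 and 2.85 at T1 and rose by 3.59 without overlap. The mean level of the list lay between 0.17 and 0.59 in the 6 other T0 horses, at 2.12 in horse 47 and between 2.09 and 3.03 in the T1 horses. This list shares *IL1R2* and *CD163* with the lists above.

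Of 18 circadian clock genes, 7 rose (38.9% against 20.2% of all gene names) and 6 fell (33.3% against 24%). The median was 0.05, or -0.12 with the scan day as a block. *ARNTL2*, a clock activator that was well above background on 1 T0 array, rose by 2.66 (0.51 in the smallest of the alternatives) and *NFIL3* by 1.69. *DBP* and *HLF*, clock outputs of the opposite phase to *NFIL3*, fell by 1.51 and 1.22. *DBP* had levels of -1.37, -0.97 and -0.28 at T0 and of -3.54, -2.40 and -1.47 at T1. The hour of sampling was not tested.

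Interferon-stimulated genes were lower. Of 33 tested, 19 fell and 2 rose, with a median of -1.05 (the same counts without horse 47, median -1.15). Besides *ISG15* and *GBP5*, *OAS2*, an enzyme that senses double-stranded RNA, fell by 1.75, from a median of 0.79 at T0 to -1.04 at T1, and *PSMB9* of the immunoproteasome fell by 1.42. *OAS3* and *SAMD9*, the genes that rose, did so on their brightest gene names, by 1.52 and 0.73. Other gene names of *OAS3* and *SAMD9* differed by -0.61 and -0.03, so that these rises are uncertain. The mean level of the list lay between 0.92 and 1.21 in the 6 other T0 horses, at 0.41 in horse 47 and between -0.46 and 0.62 in the T1 horses.

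Energy metabolism changed by pathway. Glycolysis genes had 12 of 26 higher and 1 lower, with a median of 0.53 (13 and 1 without horse 47, median 0.65). *PFKFB3* and *PFKFB2*, which make the activator of the rate-limiting step, rose by 2.70 and 2.90, and *SLC2A3*, a glucose transporter, rose by 1.77 without overlap. *PFKFB2* was well above background on 1 T0 array, and its difference was 0.65 in the smallest of the alternatives. *PFKL* fell by 0.98. Glycogen genes had 8 of 20 higher and 1 lower, *PYGM*, with a median of 0.42. The median was 0.21 with the scan day as a block and 0.71 in geldings alone, where 8 rose and none fell. Besides *STBD1* they included *PPP1R3B* (2.20), which targets a phosphatase to glycogen, and the phosphorylase *PYGL* (1.57). Of 26 hypoxia-inducible factor genes and targets, 11 were higher (42.3% against 20.2% of all gene names) and 2 lower (7.69% against 24%). *CA12* and *DDIT4*, an inhibitor of mTOR, rose by 2.56 and 2.36.

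Fat oxidation genes had 7 higher and 8 lower of 36, near the shares of all gene names, and 7 and 12 without horse 47. *CPT1A*, which admits long-chain fatty acids to the mitochondrion and is its rate-limiting step, stood apart from the list. Its median level was -2.22 at T0 and 1.13 at T1, horse 47 alone of the T0 horses reached the T1 range, and it rose by 3.07 (SE 0.28, adjusted p = 3.84e-07). *ACSL4*, which activates fatty acids, rose by 2.44, while *ECHS1* fell by 1.09. In the TCA cycle list 3 of 30 rose (10% against 20.2% of all gene names) and 8 fell (26.7%, near the 24% of all). *PC*, the pyruvate carboxylase, rose by 2.44 and *IDH3G* fell by 0.76.

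Among genes of the respiratory chain, nuclear complex I subunits fell in a larger share than all gene names (24%), and the number of genes that fell changed with the scaling. Of 32 complex I subunits, 14 fell (43.8%) and none rose, with a median of -0.49 (16 without horse 47, 10 with the scan day as a block, 21 under quantile normalization and 22 with normexp background correction before it). *NDUFS6* fell by 0.77 and *NDUFB10* by 0.75. Nuclear subunits of complexes II to V had 7 lower (20.6%) and 2 higher of 34, but 18 lower under quantile normalization, both with normexp and without it, and in the authors' series values. *UQCRB* of complex III rose by 1.24, with all but 1 of the T1 horses above every T0 horse. Of 8 genes encoded in mitochondrial DNA, *ND5* and *ND6* fell (25.0%), by 0.90 and 0.87, whereas 7 of the 8 fell under these same alternatives, with a median of -0.55 under quantile normalization against -0.32. *ND5* had levels of 2.40, 2.97 and 3.43 at T0 and of 0.87, 2.09 and 2.69 at T1.

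Redox enzymes were more often lower, with 15 of 34 lower (44.1% against 24% of all gene names), 8 higher (23.5% against 20.2%) and a median of -0.30. In geldings alone 5 were lower and 8 higher, with a median of -0.08. *PRDX2*, a peroxiredoxin chosen after its values were seen, had the largest fall of the list, 1.44. The 4 members of lowest p were among those that rose, *GLRX*, *GCLM* of glutathione synthesis (2.42), *NFE2L2*, the transcription factor of this response (1.38), and *PRDX6* (1.46). Nucleotide genes fell in 18 of 30 and rose in 5, with a median of -0.45. *IMPDH1* and *HPRT1* of purine synthesis and salvage fell by 1.14 and 0.96, and *UPP1* and *DPYD*, which break pyrimidines down, rose by 4.30 and 1.55. Of 30 amino acid and polyamine genes, 15 rose (50% against 20.2% of all gene names) and 7 fell (23.3%, near the 24% of all). *SAT1*, which acetylates polyamines, and *KMO* of tryptophan breakdown rose by 1.22 and 2.31, and *PHGDH* and *PSPH*, which make serine, fell by 1.25 and 0.62.

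Genes for making proteins were lower as large groups of small differences. Of 69 cytosolic ribosomal proteins, 39 fell and none rose, with a median of -0.54. *RPL3* had levels of 7.22, 7.92 and 8.17 at T0 and of 6.63, 7.08 and 7.39 at T1 and fell by 0.79 (SE 0.14, adjusted p = 0.000121). Horse 47 had the lowest T0 level, and without it 46 of the 69 fell. With the scan day as a block 23 fell, and the median within single days lay between -0.94 and -0.02. Of 68 mitochondrial ribosomal proteins, 43 fell and none rose, with a median of -0.51, and *MRPL34* fell by 1.32. Ribosome biogenesis genes fell in 32 of 39, with none higher and a median of -0.63, and the count was 32 both without horse 47 and with the scan day as a block. In geldings alone, 1710 of the 17404 gene names were called lower. There 8 of 69 cytosolic ribosomal proteins fell, a share close to that of all gene names. Of the other lists, 14 of 68 mitochondrial ribosomal proteins and 12 of 39 ribosome biogenesis genes fell. *RRP9* fell by 1.0 and *BOP1* by 0.81. Of 39 translation factors, 15 were lower (38.5% against 24% of all gene names) and 5 higher (12.8% against 20.2%). *EIF4A2* rose by 0.93 without overlap.

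Cell division genes fell in 22 of 31 and rose in none, with a median of -0.76 (24 without horse 47). With the scan day as a block 9 of them fell, and within single days their median lay between -1.14 and 0.33. *MCM5* and *MCM6* of the replication helicase fell by 1.11 and 1.06, and *RRM2*, which makes deoxynucleotides, by 1.25. DNA repair genes fell in 21 of 37, with a median of -0.60, and 1 rose, *XRCC4* of end joining (1.51). After normexp background correction the median of cell division genes was -0.32 and that of DNA repair genes -0.20. Splicing factors had 13 lower and 5 higher of 42, and 2 were higher with the scan day as a block.

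Several systems had a smaller share of calls than the 44.2% of all gene names. Of 43 proteasome subunits, 7 fell and 2 rose, and *PSMB10*, *PSMB9* and *PSME2*, which interferon-gamma induces, fell by 1.2, 1.42 and 1.08. Under quantile normalization 14 of the 43 were lower, and 16 were with normexp background correction before it. Heat shock proteins and chaperones had 7 higher and 6 lower of 39, with a median of -0.02, and *HSPH1* rose by 1.13. With the scan day as a block 2 of them were higher, and *HSPH1* was not called. BCL2 family and cell death genes had 5 higher and 5 lower of 32. *MCL1*, which keeps neutrophils alive, rose by 2.32 on its brightest gene name and by 0.72 on another, and *PMAIP1*, which opposes it, fell by 1.66. Endoplasmic reticulum stress genes had 5 of 27 higher and none lower, and 8 higher and 3 lower under quantile normalization.

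Other groups rose in larger shares. Autophagy and lysosome genes had 15 of 35 higher and 1 lower, among them *WIPI1* (1.83), *MAP1LC3B* (1.17) and *RB1CC1* (1.29). NADPH oxidase and phagosome genes had 9 of 15 higher, with 4 higher when the scan day was a block. *ATP6V1A*, a subunit of the proton pump that acidifies phagosomes, rose by 1.32, from between -0.93 and -0.44 to between 0.05 and 1.12. *CYBB*, the catalytic chain of the oxidase, fell by 0.70 (adjusted p = 0.0437), a call lost, among other alternatives, with sex as a term. Of 17 matrix remodelling genes 12 rose and none fell. Of 38 chromatin genes 12 rose and 3 fell (11 and 6 with the scan day as a block), and *EP300*, a histone acetyltransferase, rose by 1.47.

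Genes of TGF-beta, BMP and the ID proteins had 6 higher and 6 lower of 25, near the shares of all gene names. Among the ID proteins, which block helix-loop-helix transcription factors, *ID1* rose by 3.92, from between -6.48 and -3.54 to between -2.96 and 0.90, and *ID3* fell by 1.52, from between -0.56 and 0.80 to between -2.22 and -0.52.

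In geldings alone, 3323 of the 17404 gene names were called, 1613 higher and 1710 lower. The 4 T0 geldings included horse 47, and 10 geldings were sampled at T1. Counts of other lists were also smaller. Those that fell numbered 6 of 12 MHC class II genes, 5 of 32 nuclear complex I subunits, 10 of 30 nucleotide genes and 9 of 37 DNA repair genes. Those that rose numbered 10 of 29 MAP kinase and immediate early genes, 6 of 26 glycolysis genes, 8 of 30 amino acid and polyamine genes, 7 of 17 matrix remodelling genes and 4 of 38 chromatin genes. The share of chromatin genes that rose was close to that of all gene names in geldings. No heat shock protein or chaperone was called. Closer to the numbers with all horses were 15 of 20 glucocorticoid receptor targets higher, 16 of 33 interferon-stimulated genes lower and 8 of 11 neutrophil granule proteins higher.

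The same genes were set against the training set, whose 3 horses were sampled at both times and share no array with the validation set. Of the 3519 gene names over-expressed at T1 here, 3509 (99.7%) were also higher at T1 there, against 51.2% of all gene names. Of the 4172 under-expressed, 4129 (99.0%) were lower there, against 48.8% of all. In the training set 1972 gene names were called (11.3%), 1169 higher and 803 lower. The gene names called in both sets in the same direction numbered 1870, which is 94.8% of the training calls and 24.3% of the validation calls, and none was called in opposite directions. The training calls ranged from 277 without horse 2 to 2982 without horse 41, and were 413 without horse 32. No gene name was called for a difference between the sets in limma, and 90 had an unadjusted p under 0.05, 0.517% of those tested. With 3 training horses, and with fewer p-values under 0.05 than the 5% that would arise by chance, this test does not show that the sets are alike. Of the 60 list medians, 57 had the same sign in both sets. The exceptions were lipid droplet, heat shock and endoplasmic reticulum stress genes, whose medians here were -0.03, -0.02 and 0.10.

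**Figure D5:**
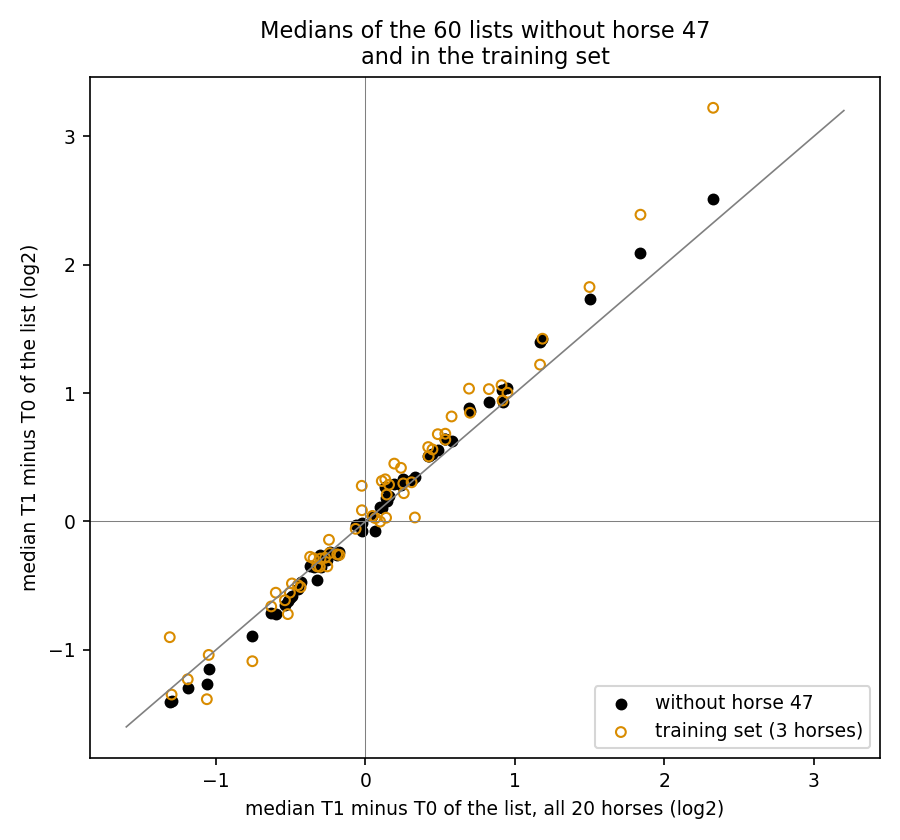
Each of the 60 lists is plotted with its median difference between T1 and T0 over all 20 horses on the horizontal axis, and on the vertical axis its median without horse 47 (filled) and in the 3 training horses (open), all on the log2 scale. The line marks equal values. The median of neutrophil granule proteins was 2.33 with all horses, 2.51 without horse 47 and 3.22 in the training set.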

How the data were processed

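Blood RNA had been labelled with Cy3 and hybridised to equine Agilent arrays of 1 colour. The deposited scanner files hold an intensity per spot from Feature Extraction 10.7.3.1, with its background removed but with no scaling across arrays. The series table deposited by the authors holds log2 values, ordered within an array as the background-subtracted median signal, with nearly equal quantiles between arrays. The authors used limma. Here, 43803 probe spots per array were used. Spots with an outlier mark (196 in the validation set) were dropped. Saturated spots were kept, and these lay on the array of horse 34, scanned in 1 pass. The log2 intensity was taken relative to the 75th percentile of its array, and the brightest probe represented each of 24415 gene names. Symbols came from the array annotation (6777), the reference gene table (7843) or a supplement of the study (489), and 9306 gene names had none. Groups came from the labels, and replicates are different horses.

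T1 was compared with T0 in limma 3.58.1 (R 4.3.3, statmod 1.5.0) without a block in the validation set and with the horse as a block in the training set, whose arrays share animals. The sets were compared in a single fit with the horse as a random block. Genes named are the 12 largest rises and falls, the 5 lowest p in each direction, markers, and up to 4 members of each list with the lowest p, plus up to 2 called members against the majority, taking the brightest gene name of a symbol. The members, lists and rules were chosen with earlier results of these data known. Alternatives covered scaling, background correction (normexp with an offset of 50), filters, probes, scan day, slide, sex and each horse left out. Some list genes were absent from the array under the names used, among them *ELANE*, *CAMP* and *PF4*. Tables and plots were made in Python.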

Additional observations from a re-analysis of the deposited data

Results flagged for a closer look

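In the 7 T0 horses, a value was singled out when the gap between the highest or lowest horse and the next was large for the range of the group (Dixon's test at the 95% level). Chance does this in about 1 in 20 groups. Of 85 results tested, which were 60 list means, 24 leading genes and the position of each array between T0 and T1, 25 were singled out, 24 of them because of horse 47. The results share genes and horses and are not independent. The T1 group of 13 was not tested in this way.

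The position of horse 47 between T0 and T1 had a gap of 0.658 of the range. As the highest T0 horse, it was singled out for the mean level of mature neutrophil genes (0.724), neutrophil granule proteins (0.592), monocyte and macrophage genes (0.636), Toll-like receptors (0.763), IL-1 and IL-18 genes (0.643), JAK, STAT and SOCS genes (0.648), and MAP kinase and immediate early genes (0.830). The same held for glucocorticoid receptor targets (0.782), clock genes (0.714), complement genes (0.608), scavenger receptors and iron genes (0.637), hypoxia-inducible factor genes (0.620), amino acid genes (0.679) and ubiquitin genes (0.658). As the lowest T0 horse, it was singled out for interferon-stimulated genes (0.630) and cytosolic ribosomal proteins (0.631). Among the leading genes it was highest in *IL1R2* (0.680), *MMP27* (0.712), *UPP1* (0.599) and *TGM3* (0.606), and lowest in *ISG15* (0.624), *GBP5* (0.668) and *HS3ST1* (0.688). On the list means, horse 47 lay outside the other 6 T0 horses on the side of T1 in 46 of 60 lists, and on the other side in 2. Why this array lay near the T1 arrays was not tested.

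Horse 40 was singled out as the lowest T0 horse for the mean level of antioxidant and redox enzymes (0.615).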

How the results depend on the processing

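The number of gene names called was within 1.5 times of 7691 under every alternative run except for geldings alone. There 4 horses at T0, horse 47 among them, and 10 at T1 gave 3323 calls, 1613 higher and 1710 lower. Leaving out each horse in turn gave between 6795 and 8310 calls, between 3186 and 3791 higher and between 3582 and 4519 lower. In the training set, each horse left out gave between 277 and 2982 calls, and the fit with no replicate block gave 1825 calls against 1972 with the horse as a block, a pairing that comes from the labels. The difference between the sets had 0 calls in limma in every alternative run, a test too weak to speak for stability. Of 285 genes named by rule, none changed sign past the threshold. In geldings alone 63 were no longer called, with the scan day as a block 12, and with the authors' series values 7. Differences of genes dim at one time were smaller after normexp background correction, as for *MS4A2*, with -0.95 in the smallest alternative. The offset of 50 in that correction by itself makes such differences smaller, and its share in the change was not tested. List medians moved by more than 1 SD of the list's mean level among T0 horses in 13 of 60 lists with normexp background correction, in 12 with the authors' series values, in 9 in geldings alone, and in 4 each with the scan day as a block and with a filter on signal well above background on all arrays. With normexp the median of B cell genes was -0.62 against -1.31, that of T cell genes -0.79 against -1.30, that of cell division genes -0.32 against -0.76 and that of DNA repair genes -0.20 against -0.60. The median of lipid droplet genes and that of cell death genes, both near 0, changed sign with quantile normalization, to 0.02 each, and that of NF-kappa B genes changed to -0.13 with the scan day as a block. Within-day values rest on between 1 and 4 arrays a group. The T0 group was small, and 1 of its 7 arrays lay near T1.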
